A study of Mus musculus with 12 samples.

Results

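The genes described here are 10 matrix metalloproteinases (MMPs) and tissue inhibitors of metalloproteinases (TIMPs), chosen by symbol: Mmp2, Mmp3, Mmp9, Mmp10, Mmp13, Mmp14, Mmp19, Timp1, Timp2 and Timp3. All 10 were listed, among 14907 genes in the authors' tables, and all 10 passed the filter on low values, among 12385 genes tested. MMPs are zinc-dependent enzymes that cut collagens and other proteins of the extracellular matrix, and most are secreted as inactive proenzymes. TIMPs bind the active site of MMPs and block it. In the gut, fibroblasts and other mesenchymal cells are a main source of both. Bacterial LPS acts on these cells through the receptor TLR4 and its adaptor proteins, among them MyD88 and TRIF.

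Messenger RNA was measured in primary mesenchymal cells of the small intestine of C57/Bl6 mice, cultured to passage 3 and sorted on GFP. The 4 groups of 3 libraries were MyD88ko with LPS, wt with LPS, MyD88ko untreated and wt untreated. All cells were kept overnight without serum, and the LPS groups then had 2 µg/ml of E. coli LPS for 6 hours. The MyD88ko cells carried the genotype ColVIcre-MyD88F/F-RosamTmG, in which a Cre driven by a collagen VI promoter deletes the floxed Myd88 alleles and a membrane-targeted reporter turns from red to GFP in cells where Cre has acted. The wt cells were labelled MyD88F/F-RosamTmG, without Cre, whereas the series' design text calls them ColVIcre+. The wt label conflicts with the sort on GFP, since cells without Cre would keep the red reporter. If the label is right, deletion of Myd88 and presence of Cre cannot be told apart, and the wt cells may have been sorted differently. All untreated libraries also carry lower library codes than all LPS libraries. Within each treatment, all MyD88ko libraries carry lower codes than all wt libraries. The labels do not say what the codes stand for. If libraries were handled in the order of the codes, an effect of that order cannot be told apart from one of LPS or of genotype. Nothing in the labels says that replicates came from separate animals. The p-values thus measure only the spread among libraries as labelled, which may be technical.

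Values are normalized read counts: reads counted at the 3′ end of each gene's transcripts, divided by a size factor per library and rounded by the authors. Estimated depth was 2.5 to 5.3 megareads per library, so that 1 read was worth 0.77 to 1.58 normalized counts, and values of a few counts rest on a few reads. The targeted gene, Myd88, had 24, 22 and 5 normalized counts in MyD88ko LPS libraries against 171, 204 and 213 in wt LPS libraries. It had 14, 8 and 10 in MyD88ko libraries against 99, 98 and 103 in wt libraries without LPS. All 10 mesenchymal markers were listed, with summed counts of 124622 to 131383 in MyD88ko LPS, 65410 to 104503 in wt LPS, 84142 to 104780 in MyD88ko untreated and 40016 to 88905 in wt untreated. The epithelial markers with values in all libraries (4 of 9) summed to 4 to 27 in MyD88ko LPS, 36 to 52 in wt LPS, 5 to 7 in untreated MyD88ko and 8 to 390 in untreated wt libraries, the high values lying in wt untreated replicates 1 and 3. Members called against wt untreated cells are therefore also given without those 2 libraries. The epithelial sums leave out Cdh1 and Krt18, which lacked values in some groups. In wt untreated libraries Cdh1 had 3, 0 and 719 normalized counts and Krt18 had 1, 0 and 68, so replicate 3 held more epithelial signal than its sum shows. In bulk samples, fewer cells of a type and less RNA per cell cannot be told apart.

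The promoters of 3 of the MMPs are printed first, because these genes lie near each other and each had lower means in MyD88ko than in wt cells, beside that of Timp2, the TIMP that rose with LPS. Sequences are RefSeq windows on GRCm38.p6 from 250 bases before to 50 bases after the gene start, available for 7 of the 10 members (not Mmp2, Mmp9 or Mmp19). The RefSeq start was that of the authors' tables for Mmp13, Mmp3 and Timp1 and lay within 40 bases of it for Mmp10, Mmp14 and Timp3. For Timp2 it lay 329 bases downstream, so that the Timp2 window falls inside the gene as the tables give it and does not cover the start given there. Each is written 5′ to 3′ on the gene's strand. Capitals mark matches to the AP-1 motif TGANTCA and to the TATA box motif TATAAA, each searched on both strands.
Mmp13, chr9:7272264-7272563, plus strand: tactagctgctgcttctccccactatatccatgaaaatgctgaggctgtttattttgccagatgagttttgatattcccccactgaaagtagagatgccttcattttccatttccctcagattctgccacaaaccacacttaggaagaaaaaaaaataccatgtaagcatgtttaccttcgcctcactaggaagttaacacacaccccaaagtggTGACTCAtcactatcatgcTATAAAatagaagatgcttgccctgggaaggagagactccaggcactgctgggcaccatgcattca
Mmp3, chr9:7445572-7445871, plus strand: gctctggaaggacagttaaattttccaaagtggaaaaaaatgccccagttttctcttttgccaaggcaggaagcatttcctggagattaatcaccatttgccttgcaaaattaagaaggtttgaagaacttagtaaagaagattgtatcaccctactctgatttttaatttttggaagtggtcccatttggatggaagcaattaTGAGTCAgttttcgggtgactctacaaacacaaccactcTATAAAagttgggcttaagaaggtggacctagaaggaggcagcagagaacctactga
Mmp10, chr9:7502092-7502391, plus strand: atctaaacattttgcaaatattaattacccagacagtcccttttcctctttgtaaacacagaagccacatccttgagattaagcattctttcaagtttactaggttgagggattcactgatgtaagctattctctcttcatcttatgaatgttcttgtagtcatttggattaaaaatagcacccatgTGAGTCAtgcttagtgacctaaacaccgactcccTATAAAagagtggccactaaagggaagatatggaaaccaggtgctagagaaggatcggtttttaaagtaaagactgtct
Timp2, chr11:118355362-118355661, minus strand: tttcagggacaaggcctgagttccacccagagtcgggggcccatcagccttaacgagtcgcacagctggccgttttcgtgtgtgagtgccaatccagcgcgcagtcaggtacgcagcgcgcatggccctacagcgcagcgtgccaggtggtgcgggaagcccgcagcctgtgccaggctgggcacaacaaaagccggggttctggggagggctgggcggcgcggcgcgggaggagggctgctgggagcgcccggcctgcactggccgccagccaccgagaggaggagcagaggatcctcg

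Each of the Mmp13, Mmp3 and Mmp10 windows held 1 AP-1 match followed by 1 TATA match. The AP-1 matches were TGACTCA in Mmp13, with its first base at -35 from the gene start, TGAGTCA at -46 in Mmp3 and TGAGTCA at -63 in Mmp10. The TATA matches began at -16, -7 and -29 in the same order of genes. The windows of Mmp14, Timp1, Timp2 and Timp3 held 0 matches to either motif. Among 32851 mouse promoter windows of the same length, 7.81% held the AP-1 motif, 13.6% the TATA motif and 1.54% both. The Ets motif AGGAAG, held by 35.4% of all windows, occurred 3 times in Timp1, 2 times in Mmp13, once each in Mmp3, Mmp14 and Timp3, and 0 times in Mmp10 and Timp2. The NF-kB motif, held by 4.51% of all windows, had 0 matches in the 7 windows. No matches overlapped. A match describes letters in a window and does not show that a factor binds there.

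**Figure D1:**
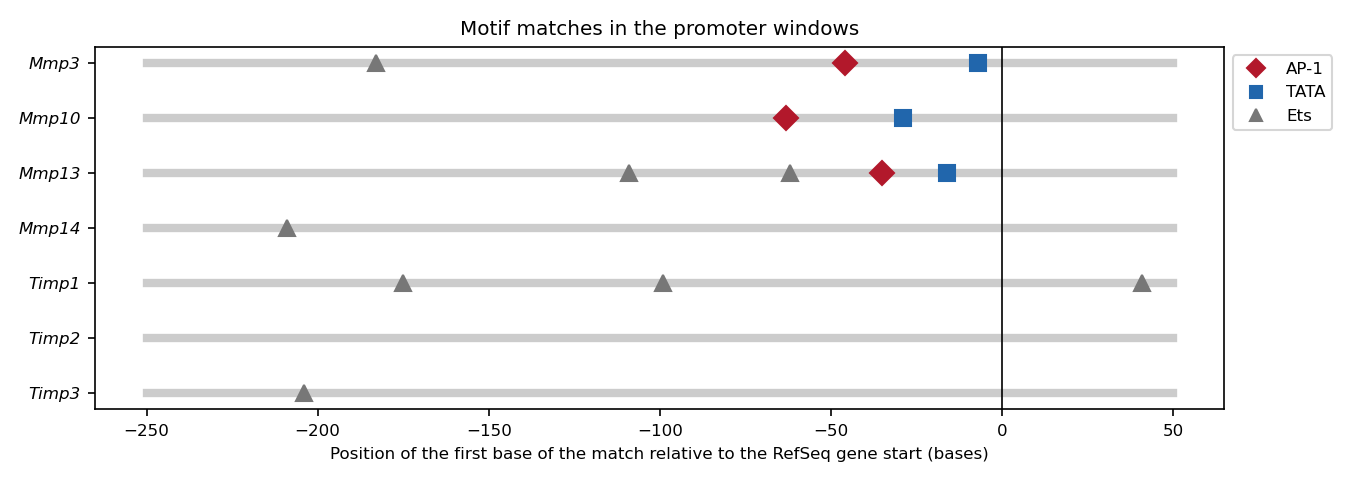
Positions of motif matches in the promoter windows of the 7 members with a RefSeq window. The horizontal axis gives the first base of each match in bases from the gene start. AP-1 matches (diamonds) and TATA matches (squares) lie in Mmp3, Mmp10 and Mmp13 at -63 to -7, and Ets matches (triangles) lie in 5 of the 7 windows.

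The gelatinases Mmp2 and Mmp9 degrade denatured collagen and the type IV collagen of basement membranes. Mmp9 (chr2:164940780-164955850, plus strand, mm10) had 55, 48 and 29 normalized counts in MyD88ko LPS libraries, 261, 475 and 208 in wt LPS libraries, 17, 15 and 36 in MyD88ko untreated libraries and 126, 262 and 144 in wt untreated libraries. Every MyD88ko library lay below every wt library, with or without LPS, and the highest MyD88ko value (55) was under 126, the lowest wt value. Mmp9 fell 7.69-fold in untreated MyD88ko against untreated wt cells (log2 fold change -2.94 ± 0.38 SE, limma adjusted p = 0.000299; -3.58 and 0.0095 without both wt untreated 1 and 3). With LPS it fell 6.82-fold in MyD88ko against wt cells (log2 fold change -2.77 ± 0.38, limma adjusted p = 0.000333). In the authors' deposited table, the Mmp9 fold was 0.133 untreated (adjusted p 6.3e-07) and 0.143 with LPS (adjusted p 1.08e-06), MyD88ko over wt.

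The response of Mmp9 to LPS did not pass the test in either genotype. Its log2 fold change was 0.98 ± 0.38 in MyD88ko cells (limma adjusted p = 0.138) and 0.81 ± 0.38 in wt cells (limma adjusted p = 0.15), with overlapping groups in both. The difference between the responses, MyD88ko minus wt, was 0.17 with a 95% interval of -0.95 to 1.30 on the log2 scale (limma adjusted p = 0.947).

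Mmp2 (chr8:92827291-92853420, plus strand) had 260, 432 and 449 normalized counts in MyD88ko LPS, 418, 845 and 528 in wt LPS, 237, 438 and 544 in untreated MyD88ko and 368, 969 and 559 in untreated wt libraries. Replicate 2 was the highest in both wt groups, and all groups overlapped. Its log2 fold change for MyD88ko over wt was -0.61 ± 0.37 untreated (limma adjusted p = 0.468) and -0.63 ± 0.37 with LPS (limma adjusted p = 0.532). For LPS over untreated, the 95% interval of the log2 fold change was -0.84 to 0.73 in MyD88ko and -0.81 to 0.75 in wt cells.

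Mmp9 and Mmp8 are also made by neutrophils. Of 9 neutrophil markers 3 were listed, Elane, S100a8 and Cxcr2, and their summed counts ran from 987 to 2488 in MyD88ko LPS, 736 to 1035 in wt LPS, 998 to 1226 in MyD88ko untreated and 1191 to 3030 in wt untreated libraries, almost all from Elane, a neutrophil serine protease. Elane had 934, 1285 and 2453 normalized counts in MyD88ko LPS against 927, 933 and 642 in wt LPS libraries, and 1057, 1216 and 980 in untreated MyD88ko against 2970, 1165 and 1816 in untreated wt libraries. Its means were thus higher in MyD88ko with LPS and lower in MyD88ko without it. S100a8, a calcium-binding protein gene of myeloid cells, had 0, 4 and 0 in MyD88ko LPS against 19, 9 and 9 in wt LPS libraries, and 0, 0 and 0 in untreated MyD88ko against 17, 2 and 5 in untreated wt libraries. Like Mmp9, it had no overlap between genotypes under either treatment. Cxcr2, a chemokine receptor gene, averaged 42.0 ± 9.64 in MyD88ko against 69.0 ± 31.2 in wt libraries with LPS, and 23.0 ± 16.1 against 41.7 ± 17.0 untreated (SD, n = 3 each). None of these 3 markers was called between genotypes (limma adjusted p 0.138 to 0.689), and their part in the Mmp9 and Mmp8 differences was not tested. Ptprc, the pan-leukocyte antigen, and Ly6g, Mpo, Csf3r, Ncf1 and S100a9 were not listed. The 5 listed macrophage markers of 9 summed to 37 to 42 in MyD88ko LPS, 26 to 68 in wt LPS, 45 to 53 in MyD88ko untreated and 55 to 65 in wt untreated libraries. No lymphocyte marker of 8 was listed, and 0 of 7 endothelial markers had values in all libraries. Among the mesenchymal markers Pdgfra, the gene of a growth factor receptor of fibroblasts, fell 3.58-fold in untreated MyD88ko against wt cells and 3.41-fold with LPS (limma adjusted p = 0.00162 and 0.00222), whereas 8 of the 10 mesenchymal markers untreated and 7 with LPS had fold changes above 1, none of them called. Col1a1 averaged 53853 in MyD88ko against 32868 in wt libraries untreated, and 77430 against 44157 with LPS. The part of these marker differences in those of the MMPs was not tested.

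The stromelysins Mmp3 and Mmp10 have a broad range of matrix substrates and activate other proMMPs. Mmp3 (chr9:7445822-7455975, plus strand) had 2, 22 and 0 normalized counts in MyD88ko LPS, 61, 91 and 36 in wt LPS, 3, 1 and 2 in untreated MyD88ko and 27, 21 and 42 in untreated wt libraries. Groups of the 2 genotypes did not overlap under the same treatment, but the MyD88ko LPS library of replicate 2 stood apart from its replicates at 22. Mmp3 fell 10.3-fold in untreated MyD88ko against untreated wt cells (log2 fold change -3.37 ± 0.81 SE, limma adjusted p = 0.0367) and 14.5-fold with LPS (-3.86 ± 0.81, limma adjusted p = 0.0157). Both folds rest on 0 to 3 counts in 5 of the 6 MyD88ko libraries. The authors' deposited table gave Mmp3 folds of 0.0968 untreated (adjusted p 0.00117) and 0.141 with LPS (adjusted p 0.0131).

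The Mmp3 call in untreated cells was lost when any of 6 single libraries was left out: MyD88ko untreated 1, 2 or 3, wt untreated 1 or 3, or wt LPS 1, with limma adjusted p of 0.0607, 0.158, 0.145, 0.135, 0.125 and 0.0575 in that order. The log2 fold change was then -3.61 to -3.11, against -3.37 with all libraries. Without both wt untreated 1 and 3 it was -2.93 on the log2 scale with a limma adjusted p of 0.588. The Mmp3 call with LPS was lost without MyD88ko LPS 1 or 3 or wt LPS 1 or 2, with limma adjusted p of 0.0521, 0.0587, 0.0838 and 0.089 and log2 fold changes of -3.63, -2.84, -3.83 and -3.55. Without MyD88ko LPS 2 the log2 fold change was -5.10, and the call held. LPS over untreated did not pass the test for Mmp3, at 0.51 ± 0.81 in MyD88ko (limma adjusted p = 0.775) and 1.0 ± 0.81 in wt cells (limma adjusted p = 0.428).

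Mmp10 (chr9:7502352-7510240, plus strand) had 15, 14 and 25 normalized counts in MyD88ko LPS, 92, 106 and 39 in wt LPS, 5, 12 and 9 in untreated MyD88ko and 20, 33 and 27 in untreated wt libraries. Its 4 groups took the order MyD88ko untreated, MyD88ko LPS, wt untreated and wt LPS by mean, and the middle 2 groups overlapped. Mmp10 rose 2.71-fold with LPS in wt cells (log2 fold change 1.44 ± 0.47 SE, limma adjusted p = 0.0354). With LPS it fell 4.0-fold in MyD88ko against wt cells (-2.00 ± 0.47, limma adjusted p = 0.0318). Untreated, the log2 fold change of MyD88ko over wt was -1.56 ± 0.47 without overlap (limma adjusted p = 0.0971), and LPS over untreated in MyD88ko cells was 1.0 ± 0.47 without overlap (limma adjusted p = 0.222). The authors' deposited table gave Mmp10 a fold of 2.89 for wt LPS over wt untreated (adjusted p 0.15) and 0.237 for MyD88ko LPS over wt LPS (adjusted p 0.102), so neither passed there.

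The rise of Mmp10 in wt cells was lost without wt LPS 1 or 2 or without wt untreated 1 or 3 (limma adjusted p 0.137, 0.15, 0.123 and 0.0715), with log2 fold changes of 1.27, 1.17, 1.25 and 1.46 against 1.44 with all libraries. Without both wt untreated 1 and 3 it was 1.11 with a limma adjusted p of 0.369. Its fall in MyD88ko LPS cells was lost without MyD88ko LPS 1 or 2 or wt LPS 1 or 2 (limma adjusted p 0.0806, 0.12, 0.181 and 0.159), with log2 fold changes of -1.90, -1.85, -1.83 and -1.73 against -2.00 with all libraries.

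Mmp13 (chr9:7272514-7283331, plus strand), the main collagenase for fibrillar collagen in rodents, had 2, 4 and 8 normalized counts in MyD88ko LPS, 41, 33 and 19 in wt LPS, 1, 8 and 1 in untreated MyD88ko and 7, 8 and 9 in untreated wt libraries. The wt LPS libraries lay above all 9 others, and no comparison passed the test. Mmp13 met the filter on low values only through wt LPS, where its mean was 31.0, so the height of this group also decided that it was tested. The other means were 4.67 in MyD88ko LPS, 3.33 in MyD88ko untreated and 8.0 in wt untreated libraries. With LPS the log2 fold change of MyD88ko over wt was -2.57 ± 0.69 (limma adjusted p = 0.0729), and LPS over untreated in wt cells gave 1.77 ± 0.69 (limma adjusted p = 0.081). In MyD88ko cells LPS over untreated gave 0.64 ± 0.69 (limma adjusted p = 0.649), and the difference between the responses, MyD88ko minus wt, was -1.13 with a 95% interval of -3.18 to 0.91 (limma adjusted p = 0.752).

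**Figure D2:**
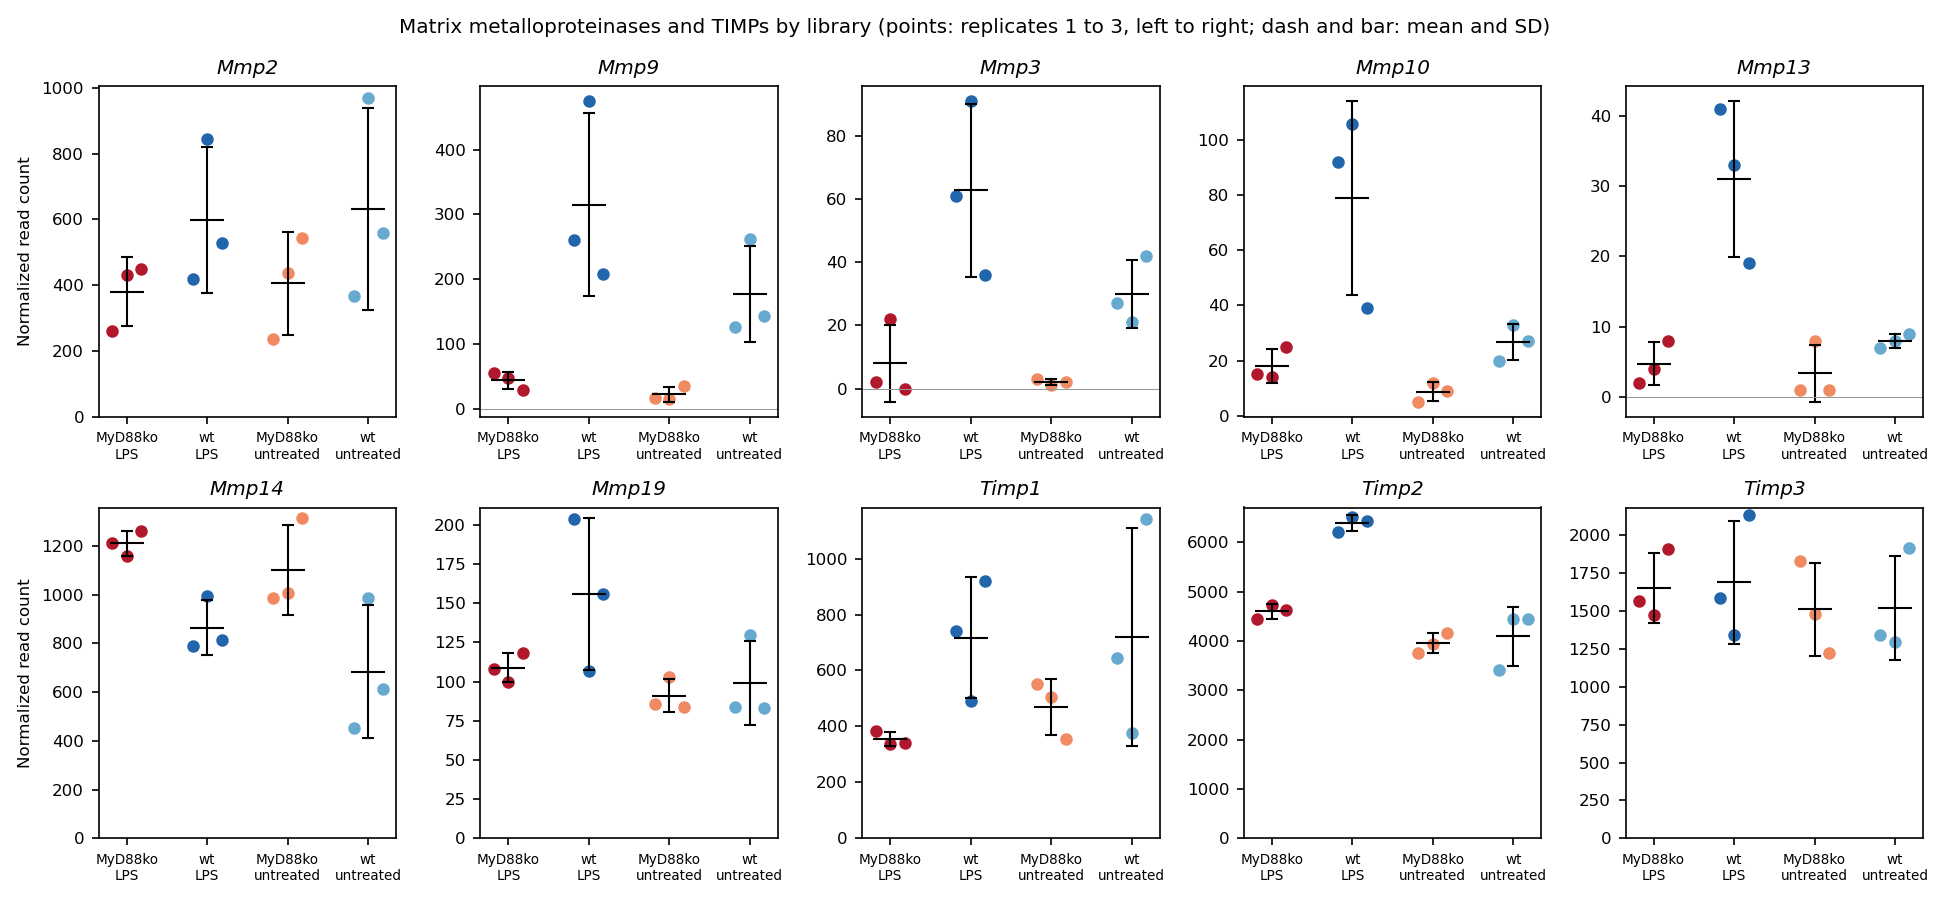
Normalized read counts of the 10 members in each library on linear axes from 0, 1 panel per gene, with the mean and SD of each group of 3. Mmp9 lies at 15 to 55 in the 6 MyD88ko libraries and at 126 to 475 in the 6 wt libraries, and Timp2 lies at 6210 to 6519 in wt LPS libraries, above all others.

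The membrane-bound Mmp14 activates proMmp2 at the cell surface, with Timp2 as its partner. Mmp14 (chr14:54431612-54441265, plus strand) had 1211, 1159 and 1260 normalized counts in MyD88ko LPS, 787, 992 and 812 in wt LPS, 984, 1006 and 1312 in untreated MyD88ko and 453, 987 and 612 in untreated wt libraries. It was the only MMP among the members with higher means in MyD88ko than in wt cells, 1210 ± 50.5 against 864 ± 112 with LPS and 1101 ± 183 against 684 ± 274 untreated (SD, n = 3 each). The genotypes did not overlap with LPS and overlapped without it, at 984 in MyD88ko against 987 in wt. Neither difference passed the test, at 0.49 ± 0.24 with LPS (limma adjusted p = 0.421) and 0.75 ± 0.24 untreated (limma adjusted p = 0.119) on the log2 scale. The untreated difference passed without wt untreated 2, the library with 987 (1.05 on the log2 scale, limma adjusted p = 0.011). That was 1 of 23 alternatives, over which the difference spanned 0.14 to 1.05. With 1 library left out it spanned 0.49 to 1.05 (limma adjusted p 0.011 to 0.464).

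Mmp19 (chr10:128790953-128800824, plus strand), a secreted MMP of wide tissue distribution, had 108, 100 and 118 normalized counts in MyD88ko LPS, 204, 107 and 156 in wt LPS, 86, 103 and 84 in untreated MyD88ko and 84, 130 and 83 in untreated wt libraries. The groups overlapped between genotypes, and its log2 fold change with LPS in wt cells was 0.63 ± 0.27 (limma adjusted p = 0.11). That log2 fold change was 0.88 without wt LPS 2 (limma adjusted p = 0.0431) and 0.41 without wt LPS 1 (limma adjusted p = 0.393). Without both wt untreated 1 and 3 it was 0.21. Mmp19 overlaps Tmem198b on the opposite strand, which averaged 77.0 normalized counts, and whether counting used strand is not given in the sources used here, so its values are uncertain.

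Timp2 (chr11:118301069-118355740, minus strand) inhibits MMPs and takes part in the activation of proMmp2. It had 4439, 4739 and 4620 normalized counts in MyD88ko LPS, 6210, 6519 and 6437 in wt LPS, 3762, 3929 and 4163 in untreated MyD88ko and 3407, 4436 and 4438 in untreated wt libraries. The wt LPS libraries lay above all others, and the other 3 groups lay between 3407 and 4739. Timp2 rose 1.57-fold with LPS in wt cells (log2 fold change 0.65 ± 0.18 SE, 95% interval 0.28 to 1.03, limma adjusted p = 0.0146). The rise was lost without wt untreated 1, the library with 3407 (0.53, limma adjusted p = 0.0834), and without both wt untreated 1 and 3 (limma adjusted p = 0.209). In MyD88ko cells LPS over untreated gave 0.22 ± 0.18 (limma adjusted p = 0.526), again without overlap of the groups. The difference between the responses, MyD88ko minus wt, was -0.43 ± 0.25 with a 95% interval of -0.96 to 0.10 (limma adjusted p = 0.619). The fold of 1.56 in the authors' deposited table had an adjusted p of 0.587.

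Timp1 (chrX:20870166-20874735, plus strand), an inducible inhibitor of most secreted MMPs, had 384, 338 and 342 normalized counts in MyD88ko LPS, 742, 490 and 919 in wt LPS, 550, 504 and 356 in untreated MyD88ko and 643, 376 and 1142 in untreated wt libraries. Replicate 2 was the lowest in both wt groups. With LPS the genotypes did not overlap, at a log2 fold change of -0.97 ± 0.32 for MyD88ko over wt that did not pass the test (limma adjusted p = 0.177). Timp1 overlaps Syn1 on the opposite strand, which averaged 13.5 normalized counts.

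Timp3 (chr10:86300372-86349506, plus strand), which is bound to the matrix and also inhibits ADAM proteases, had 1565, 1472 and 1911 normalized counts in MyD88ko LPS, 1586, 1343 and 2134 in wt LPS, 1831, 1480 and 1220 in untreated MyD88ko and 1343, 1296 and 1914 in untreated wt libraries. All 4 groups overlapped. The 95% intervals of MyD88ko over wt were -0.49 to 0.46 with LPS and -0.48 to 0.47 untreated on the log2 scale.

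By comparison, 2 of the 10 members rose and 0 fell with LPS in wt cells, where 19.2% of all genes tested were called, 9.55% higher and 9.66% lower. In MyD88ko cells 0 of 10 were called with LPS, against 5.98% of all genes, 2.58% higher and 3.4% lower, and 2 members, Mmp9 and Mmp10, had an unadjusted limma p under 0.05, as did 21.0% of all genes. The authors' deposited table also had 0 members at an adjusted p under 0.05 in either LPS comparison. Between untreated MyD88ko and wt cells 2 members fell and 0 rose, against 1.88% of all genes called, 0.791% higher and 1.09% lower. With LPS, 3 members fell and 0 rose in MyD88ko against wt cells, against 1.49% of all genes called, 0.452% higher and 1.04% lower. The authors' deposited table had 2 members, Mmp3 and Mmp9, at an adjusted p under 0.05 in each genotype comparison. The difference between the responses to LPS was called for 0 of 10 members, and 0 had an unadjusted limma p under 0.05 (9.18% of all genes did), against 0.0161% of all genes called, 0.00807% in each direction.

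The members' median log2 fold change was 0.64 with LPS in wt cells, where that of all genes was 0.01. It was 0.24 with LPS in MyD88ko cells, -0.55 for MyD88ko over wt untreated and -0.80 for MyD88ko over wt with LPS, where that of all genes was 0 each. In the comparison of genotypes with LPS, 7 members did not overlap between groups, 6 of them lower and 1 higher in MyD88ko, where 15.8% of all genes did not overlap, 8.31% lower and 7.54% higher. Untreated, 3 members did not overlap, all lower in MyD88ko, against 20.4% of all genes and 9.89% lower. With LPS in wt cells 3 did not overlap, all higher, against 34.8% of all genes and 17.4% higher, and in MyD88ko cells 2 did not overlap, both higher, against 25.5% and 12.2% higher. The comparisons share libraries and are therefore not independent of each other.

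**Figure D3:**
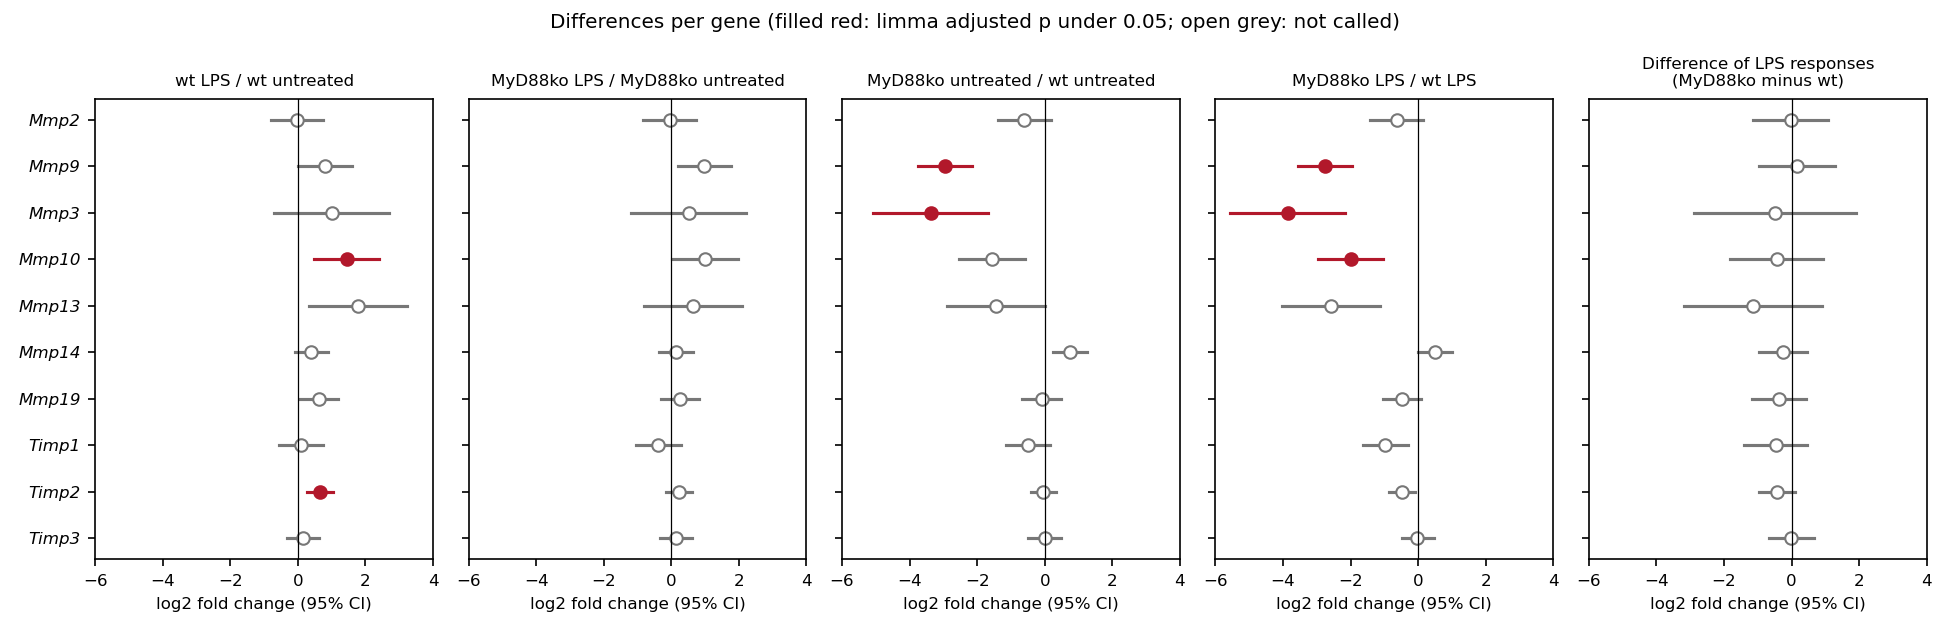
Log2 fold changes of the 10 members with 95% confidence intervals (lines), 1 panel per comparison, the last panel being the difference between the LPS responses. Filled points have a limma adjusted p under 0.05: Mmp10 and Timp2 for LPS in wt, Mmp3 and Mmp9 between untreated genotypes, and Mmp3, Mmp9 and Mmp10 between genotypes with LPS.

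Mmp13, Mmp3 and Mmp10 lie in a cluster of MMP genes on chromosome 9. Of 9 protein-coding MMP genes within 1000 kb of Mmp13, 5 were listed, and their starts lay 0 kb (Mmp13), 71.9 kb (Mmp12), 173.3 kb (Mmp3), 229.8 kb (Mmp10) and 285.9 kb (Mmp8) from the Mmp13 start. Mmp8, the neutrophil collagenase, had 11, 0 and 0 normalized counts in MyD88ko LPS, 53, 8 and 27 in wt LPS, 0, 2 and 2 in untreated MyD88ko and 52, 33 and 17 in untreated wt libraries. It fell 15.3-fold in untreated MyD88ko against wt cells (limma adjusted p = 0.0305) and did not pass the test with LPS (log2 fold change -3.38 ± 0.91, limma adjusted p = 0.0731). Mmp12, the macrophage elastase, had higher values with LPS in MyD88ko cells, at 11, 10 and 10 normalized counts against 4, 2 and 6 in wt cells, a difference that did not pass the test (1.26 ± 0.64, limma adjusted p = 0.447). Of the other genes among those 9, Mmp1b, Mmp20 and 1 of 2 windows each of Mmp7 and Mmp12 held both the AP-1 and the TATA motif, as did Mmp1a, which the annotation does not class as protein-coding. The Mmp8 window held TATA alone, and the Mmp27 window held neither.

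**Figure D4:**
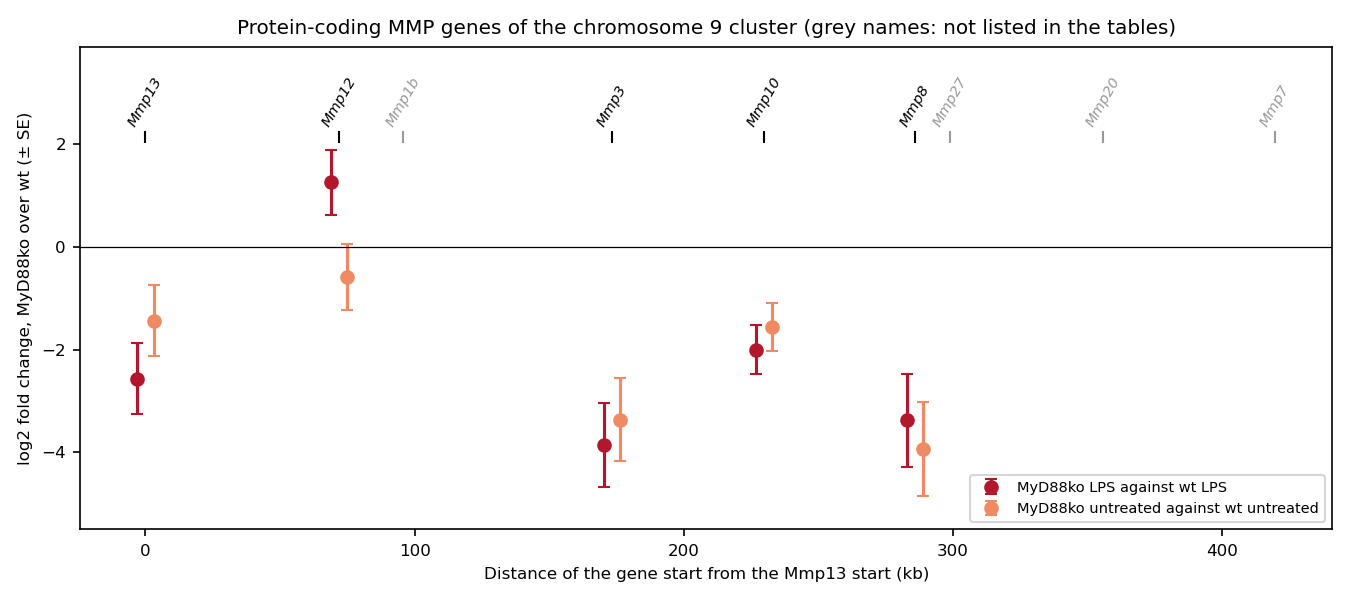
Log2 fold changes of MyD88ko over wt (points) with their SE (bars), with LPS and untreated, against the distance of each gene's start from the Mmp13 start in kb. Mmp13, Mmp3, Mmp10 and Mmp8 lie below 0 in both comparisons, at -3.94 to -1.44, while Mmp12 lies at 1.26 with LPS and -0.59 untreated.

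The patterns most like those of the 3 members with the largest spread over the 12 libraries were measured as the root mean square difference of centred log2 values. Mmp3 (SD 2.2 on the log2 scale) was nearest to Myd88 (0.77), Ccl11 (0.94) and Mmp9 (1.06). Mmp9 (SD 1.64) was nearest to Nfkbiz (0.42), which encodes an IkB-family nuclear protein, to Myd88 (0.65) and to Lgi2 (0.65). Nfkbiz had 22, 19 and 22 normalized counts in MyD88ko LPS, 147, 207 and 166 in wt LPS, 8, 9 and 15 in untreated MyD88ko and 48, 87 and 45 in untreated wt libraries. Like Mmp9, it was highest in replicate 2 of both wt groups, which is part of the likeness by which it was picked. Mmp13 (SD 1.43) was nearest to its cluster neighbour Mmp10 (0.5), then Ifi211 (0.55) and Tmem176b (0.61). The remaining members had an SD of 1.23 (Mmp10) or at most 0.59, the lowest being 0.26 for Timp3.

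Other genes of the pathway were counted in the same fit. Of 8 further MMPs tested, Mmp8 was the only call in the 5 comparisons. Of 13 genes of MMP activation and clearance, Cd44, which tethers Mmp9 to the cell surface, rose 1.99-fold with LPS in wt cells (limma adjusted p = 0.00498) and fell 1.99-fold with LPS in MyD88ko against wt cells (limma adjusted p = 0.0318). Cd44 had 468, 280 and 282 normalized counts in MyD88ko LPS, 622, 659 and 713 in wt LPS, 394, 239 and 294 in untreated MyD88ko and 352, 322 and 328 in untreated wt libraries. In that list the proprotein convertase gene Pcsk5 also fell with LPS in MyD88ko against wt cells (7.72-fold, 2, 3 and 0 against 22, 19 and 11 normalized counts, limma adjusted p = 0.0399), and Pcsk6 rose 2.34-fold in untreated MyD88ko against wt cells (limma adjusted p = 0.0434).

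Of 16 ADAM and ADAMTS proteases tested, 3 rose and 1 fell with LPS in wt cells, 1 rose in MyD88ko cells, and 0 were called between genotypes, where 2 untreated and 9 with LPS had an unadjusted limma p under 0.05, against 15.5% and 12% of all genes. Adam15 rose in both genotypes, 1.84-fold in MyD88ko (limma adjusted p = 0.0176) and 3.35-fold in wt cells (limma adjusted p = 2.02e-05). Adam17, the sheddase of TNF, rose 1.84-fold in wt cells (limma adjusted p = 0.0275), and Adamts1 fell 2.05-fold there (limma adjusted p = 0.00517). Of 5 genes of the plasminogen system, whose product plasmin activates proMMPs, Plat fell 2.08-fold with LPS in MyD88ko cells (limma adjusted p = 0.0147) and 2.65-fold with LPS in MyD88ko against wt cells (limma adjusted p = 0.00414). Plat had 39, 39 and 44 normalized counts in MyD88ko LPS against 120, 113 and 96 in wt LPS libraries. Untreated, it had 92, 100 and 68 in MyD88ko against 148, 176 and 143 in wt libraries. Its values were thus also lower with LPS in wt cells and in untreated MyD88ko against wt cells, where 0 of the 5 genes were called.

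Of 13 MMP substrates, Lamc1, a laminin chain, rose 2.33-fold with LPS in wt cells (limma adjusted p = 0.00562). Vcan, which encodes the proteoglycan versican, fell in MyD88ko against wt cells, 2.34-fold untreated (limma adjusted p = 0.00711) and 2.49-fold with LPS (limma adjusted p = 0.00381). No other substrate gene was called, and 6 untreated and 4 with LPS had an unadjusted limma p under 0.05 between genotypes, again against 15.5% and 12% of all genes.

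Of 12 transcription factor genes of the AP-1, Ets and NF-kB families tested, with Cebpb and Egr1 in the list, 3 rose and 3 fell with LPS in wt cells, and 3 rose and 1 fell in MyD88ko cells. Junb, an AP-1 subunit, rose 3.71-fold in MyD88ko (limma adjusted p = 0.00111) and 5.06-fold in wt cells (limma adjusted p = 4.2e-05). Between genotypes with LPS, Ets2 and Cebpb fell in MyD88ko, 3.51-fold and 3.08-fold (limma adjusted p = 0.000214 and 0.000713). Ets2 had 121, 133 and 94 normalized counts in MyD88ko LPS against 467, 420 and 341 in wt LPS libraries, and Cebpb 142, 210 and 134 against 456, 535 and 486. Both were also lower in untreated MyD88ko than in untreated wt libraries. Ets2 had 84, 62 and 56 against 112, 116 and 137, and Cebpb 80, 79 and 84 against 173, 112 and 181. Of the 12 estimates, 12 lay below 0 with LPS and 8 untreated, where the median of all genes was 0. In untreated cells 0 of the 12 were called between genotypes, and 4 had an unadjusted limma p under 0.05, against 15.5% of all genes. The difference between the responses to LPS was called for 0 genes in any of these lists.

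**Figure D5:**
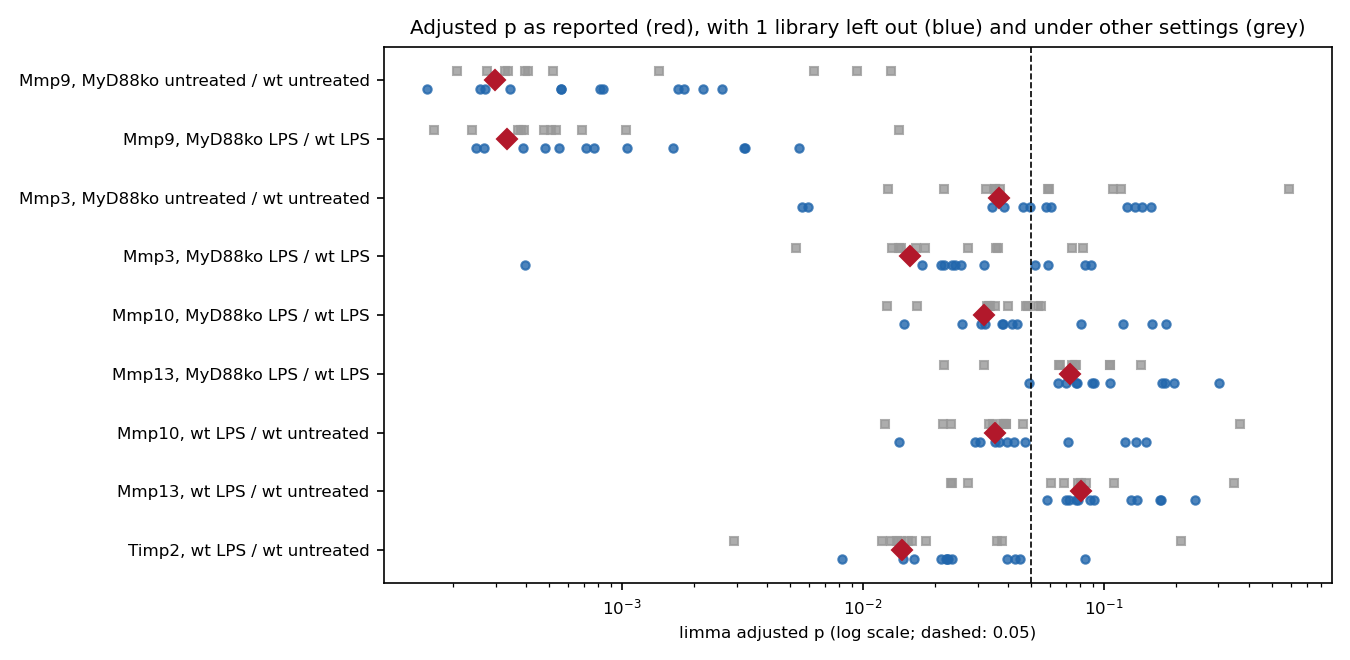
Limma adjusted p (log axis) of 9 member results: as reported (diamonds), with 1 library left out (circles) and under other settings (squares), with the threshold of 0.05 dashed. The Mmp9 values stay at or below 0.0141, whereas those of Mmp3, Mmp10, Mmp13 and Timp2 lie on both sides of the threshold.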

How the data were processed

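Libraries were 3′ messenger RNA libraries (QuantSeq) read on an Ion Proton, per the labels' protocols. The submitters' processing notes list TopHat2, Bowtie2, DESeq and mm10, with no version or role. The expression values the authors deposited are scores: reads per gene that they normalized in 1 run over the 12 samples and then rounded. The authors also deposited, per comparison, p-values and FDR values from their own test. The fold the authors deposited is the ratio of group means, each raised by 1. Of 166719 values printed in more than 1 table, 0 differed. Size factors were estimated from values that rounding skips or doubles in each library, taking each value as whole reads divided by 1 factor. Depths are therefore approximate and cover counting error only. The largest error in simulations was 0.0002.

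Here, limma 3.58.1 in R 4.3.3 (limma-trend, robust) was run on log2 values after a pseudocount of 1, with all 12 samples in 1 fit and 8 residual degrees of freedom. A gene entered the test if every sample had a value and any group averaged 10 or more. Mmp3, Mmp8 and Ccl11 averaged that much only in the wt groups, and Mmp13, Pcsk5 and S100a8 only in wt LPS libraries. Calls required a Benjamini-Hochberg adjusted p below 0.05 (two-sided) among the 12385 genes of each comparison. Folds of low genes depend on the pseudocount. They come from means of log2 values, so they can be larger or smaller than ratios of mean counts. For Mmp3 in MyD88ko against wt cells with LPS, the log2 fold change was -4.28 with a pseudocount of 0.5 and -2.70 with 5, against -3.86 with 1. The script was tested on simulated data. Of the members, 8 of 10 lay at their GENCODE M21 coordinates.

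The members, gene lists and tests were chosen with earlier results of these data known. Named genes were all members, up to 4 called genes of each list per comparison, Myd88, and the 3 genes most like each of the 3 members with the largest spread, with a mean of at least 20. Mmp12 and single marker genes were named after their values were seen. Alternatives tried were 2 other scalings (TMM-like and quantile), limma with no trend, the low-value filter removed or raised to 50, separate fits for each comparison, a replicate block, pseudocounts of 0.5 and 5, leaving out libraries, and voom on estimated reads, which was chosen after seeing the data.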

Additional observations from a re-analysis of the deposited data

How the results depend on the processing

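Under 23 alternatives, 1049 of 1135 member values kept their direction and side of the threshold, 30 lost and 10 gained a call, and 46 changed sign, none of them called. Mmp9 was called in both genotype comparisons under all 23. The members called numbered 0 to 3 with LPS in wt cells (0 without both wt untreated 1 and 3), 1 to 3 between untreated genotypes (1 each with limma without trend, a mean of at least 50, a pseudocount of 0.5, voom and without both wt untreated 1 and 3) and 1 to 4 between genotypes with LPS (1 with limma without trend). Leaving out 1 replicate spanned the same ranges of 0 to 3, 1 to 3 and 1 to 4. All genes called ranged from 973 to 2722 with LPS in wt cells (2380 as reported), 337 to 791 in MyD88ko cells (741), 36 to 416 between untreated genotypes (233), 85 to 206 with LPS (185) and 0 to 44 for the difference (2). Mmp13 was called between genotypes with LPS with a pseudocount of 5, voom, and without MyD88ko untreated 2 (limma adjusted p 0.0218, 0.0318 and 0.0491), and Timp2 with quantile normalization (0.0357). Mmp13 could not be tested at a mean of at least 50, and fits of only the groups compared give no difference between responses.

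Signs changed as follows on the log2 scale, and the cause was not tested. Mmp2 with LPS in wt cells was 0.03 with quantile normalization, and Timp3 between untreated genotypes was 0.01 with the TMM-like rescaling. Without both wt untreated 1 and 3, Mmp14 with LPS in wt cells was -0.20, Timp1 and Timp3 between untreated genotypes were 0.30 and 0.20, and the differences of Mmp2, Mmp14 and Mmp19 were 0.71, 0.35 and 0.05. With 1 replicate left out, LPS in wt cells spanned -0.36 to 0.33 for Mmp2, -0.30 to 0.50 for Timp1 and -0.03 to 0.33 for Timp3. LPS in MyD88ko cells spanned -0.40 to 0.20 for Mmp2, -0.74 to 1.53 for Mmp3 and -0.01 to 0.29 for Timp3. Untreated genotypes spanned -0.20 to 0.12 for Mmp19, -0.17 to 0.02 for Timp2 and -0.15 to 0.18 for Timp3, and genotypes with LPS -0.17 to 0.17 for Timp3. The difference spanned -0.39 to 0.31 for Mmp2, -1.73 to 0.53 for Mmp3, -0.14 to 0.55 for Mmp9, -0.56 to 0.00 for Mmp14 and -0.19 to 0.17 for Timp3.

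The labels give the groups the same replicate numbers, but deviations of same-numbered samples correlated at -0.11 to 0.17, so the numbers were not taken to pair the samples. In the wt groups all 3 replicates correlated best with their own number (0.06 to 0.17), a hint from the data and not the design; elsewhere 1 or 2 of 3 did. With a replicate block, 2 members were called with LPS in wt cells, 2 between untreated genotypes, 3 with LPS and 0 in the other 2 comparisons, as without it; the SE of Mmp2 between genotypes was 0.23 with the block and 0.37 without. Values of a few counts, such as those of Mmp3, Mmp13 and Mmp8 in MyD88ko cells, limit what depth can show.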
